A study of Homo sapiens with 16 samples.

Results

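The genes described here are matrix metalloproteinases (MMPs) and tissue inhibitors of metalloproteinases (TIMPs) of MCF-10A cells, a nontransformed human breast epithelial line, followed after CP724,714 was added. CP724,714 is a small molecule that inhibits the kinase activity of HER2, a receptor tyrosine kinase of the EGF receptor family. The members were the rows of the intensity table whose symbol was MMP1, MMP2, MMP3, MMP9, MMP10, MMP14, TIMP1, TIMP2 or TIMP3. They came to 9 of 20589 rows, 1 row for each symbol, with 6 MMPs and 3 TIMPs. Only TIMP1, TIMP2 and TIMP3 passed the filter, which asked for 3 or more of the 16 arrays with a detection p below 0.05, so the tests below cover 3 of the 9 members.

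RNA was taken every 3 hours from 0 to 45 hours from cultures plated in parallel, and each time point was measured on 1 Illumina human Ref8v2 bead array. The 0 hour culture was untreated, and the other cultures had 1 µM CP724,714 in their medium for the stated time. All cultures, the untreated one included, were grown in serum-free medium with insulin, EGF and hydrocortisone, and the study's methods state that treatment began with fresh medium. No untreated culture was taken at a later time, so time in culture, the fresh medium and the inhibitor cannot be told apart. No time point had a replicate, and the arrays were compared in windows of 4 neighbouring times (0 to 9, 12 to 21, 24 to 33 and 36 to 45 hours), whose spread is that between neighbouring cultures and not between replicates of a condition. An SD below is always that of such a window, with n = 4 arrays.

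MMPs are zinc-dependent endopeptidases that cut collagens, laminins and other proteins of the extracellular matrix and the cell surface, and most are secreted as inactive precursors. TIMPs are small secreted proteins that bind the active site of MMPs and block it. In breast tissue both are known for their part in the turnover of the basement membrane and in duct branching, and several MMP genes are classical targets of AP-1 factors downstream of growth factor receptors.

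The MMP genes on this array differ in where they lie and in their promoters. MMP1, MMP3 and MMP10 lie on chromosome 11, as do MMP7 and MMP13, MMP2 on 16, MMP9 on 20 and MMP14 on 14. TIMP1 lies on the X chromosome, TIMP2 on 17 and TIMP3 on 22. RefSeq promoters (GRCh38.p14) were matched by symbol for 4 of the 9 members, TIMP1, TIMP3, MMP10 and MMP14. A promoter is also given for MMP7, which is no member but was the brightest of the other MMPs. The promoters are shown to set the detected genes beside those that were not. Each stretch runs from 170 to 11 bases before the annotated start, is read 5′ to 3′ on the strand of the gene, and has in capitals each match to the AP-1 motif TGANTCA, the TATA motif TATAAA, the GC box GGGCGG and the PEA3 motif AGGAAG, which ETS factors bind, searched on both strands.
TIMP1, chrX:47582266-47582425, plus strand: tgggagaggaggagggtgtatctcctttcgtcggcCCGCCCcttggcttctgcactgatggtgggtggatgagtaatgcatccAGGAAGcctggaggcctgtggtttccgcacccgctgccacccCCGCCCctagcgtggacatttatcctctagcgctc
TIMP3, chr22:32801535-32801694, plus strand: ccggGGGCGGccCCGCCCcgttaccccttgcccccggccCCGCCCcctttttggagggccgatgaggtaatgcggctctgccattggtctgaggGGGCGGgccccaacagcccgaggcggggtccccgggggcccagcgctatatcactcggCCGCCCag
MMP14, chr14:22836415-22836574, plus strand: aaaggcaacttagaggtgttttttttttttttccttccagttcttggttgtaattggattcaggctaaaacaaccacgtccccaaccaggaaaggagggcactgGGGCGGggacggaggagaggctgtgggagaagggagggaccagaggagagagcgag
MMP10, chr11:102780639-102780798, minus strand: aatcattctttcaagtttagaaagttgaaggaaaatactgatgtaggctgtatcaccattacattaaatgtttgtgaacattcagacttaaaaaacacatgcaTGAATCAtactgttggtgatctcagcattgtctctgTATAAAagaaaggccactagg
MMP7, chr11:102530758-102530917, minus strand: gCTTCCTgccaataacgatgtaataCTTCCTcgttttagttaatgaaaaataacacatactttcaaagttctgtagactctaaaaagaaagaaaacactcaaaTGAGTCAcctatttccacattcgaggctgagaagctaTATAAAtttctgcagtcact

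MMP10 and MMP7 each held an AP-1 match 67 bases before the start, TGAATCA in MMP10 and TGAGTCA in MMP7. They also held a TATA match, 31 bases before the start in MMP10 and 30 in MMP7. The TIMP1, TIMP3 and MMP14 stretches held no exact match to either of these motifs, and each held GC boxes: 5 in TIMP3, 2 in TIMP1 and 1 in MMP14. Only the letters TGANTCA were searched for AP-1, so near matches, such as TGAGTAA in the TIMP1 stretch, were not counted. PEA3 matches lay 87 bases before the start of TIMP1 and 169 and 145 bases before that of MMP7. Over the same 160 bases of 35116 promoters, 4.51% held the AP-1 motif, 7.27% TATAAA, 36.8% the GC box and 19.5% the PEA3 motif. No motif overlapped another in these stretches, and a match is a run of letters, not a measured binding site.

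TIMP1 gave bright signal on all 16 arrays and rose over the series. TIMP1 binds most MMPs, and free TIMP1 also binds the precursor of MMP9. Its deposited intensity, in the scanner's linear units and not scaled between arrays, was 18264, 19836, 19613 and 20267 at 0, 3, 6 and 9 hours. It was 20726, 20856, 24333 and 23636 from 12 to 21 hours. From 24 to 33 hours it was 26078, 27170, 27003 and 27731. It reached 34739, 36908, 38912 and 37063 at 36, 39, 42 and 45 hours. The lowest value was that of the untreated culture, every value of a later window lay above every value of the one before on this scale, and the widest gap between windows lay between 33 and 36 hours.

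After background correction and quantile normalization, the TIMP1 mean on the log2 scale was 14.29 ± 0.08 (SD), 14.47 ± 0.08, 14.61 ± 0.07 and 15.20 ± 0.11 in the successive windows. On this scale the second and the third window overlapped, with 14.53 at 18 hours above 14.52 at 24 hours, and the other neighbouring windows did not overlap. The last 4 time points were 0.91 (SE 0.06) above the first 4, a 1.88-fold difference (limma, Benjamini-Hochberg adjusted p = 2.67e-08). Of all tested rows, 16.2% were called higher and 15% lower in this comparison, and TIMP1 was the 1 member called, with 4.64% of tested rows changed by more. On this scale most of the rise fell at the end of the series. The window of 36 to 45 hours was 0.60 (SE 0.06) above that of 24 to 33 hours, or 1.51-fold (limma, adjusted p = 9.93e-07). The single step from 33 to 36 hours was 0.34. Under median scaling the last window was 1.04 above the first and 0.45 above the third. How much of the rise fell at the end thus depended on the normalization.

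On the quantile normalized scale the first part of the TIMP1 course was smaller. From the first window to the second it rose by 0.18 (limma, adjusted p = 0.0335). That call was lost when the 0, 3, 18 or 21 hour array was left out, with differences of 0.13, 0.18, 0.15 and 0.16, and under cyclic loess normalization (0.12). The difference of 24 to 33 hours from 12 to 21 hours, 0.14, had an adjusted p of 0.93, in a comparison that called 0% of tested rows higher and 0.0251% lower. At an unadjusted p under 0.05 that comparison held 308 higher and 278 lower rows. The early comparison, 6 and 9 hours against 0 and 3 hours, gave 0.09 (limma, adjusted p = 0.387).

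**Figure D1:**
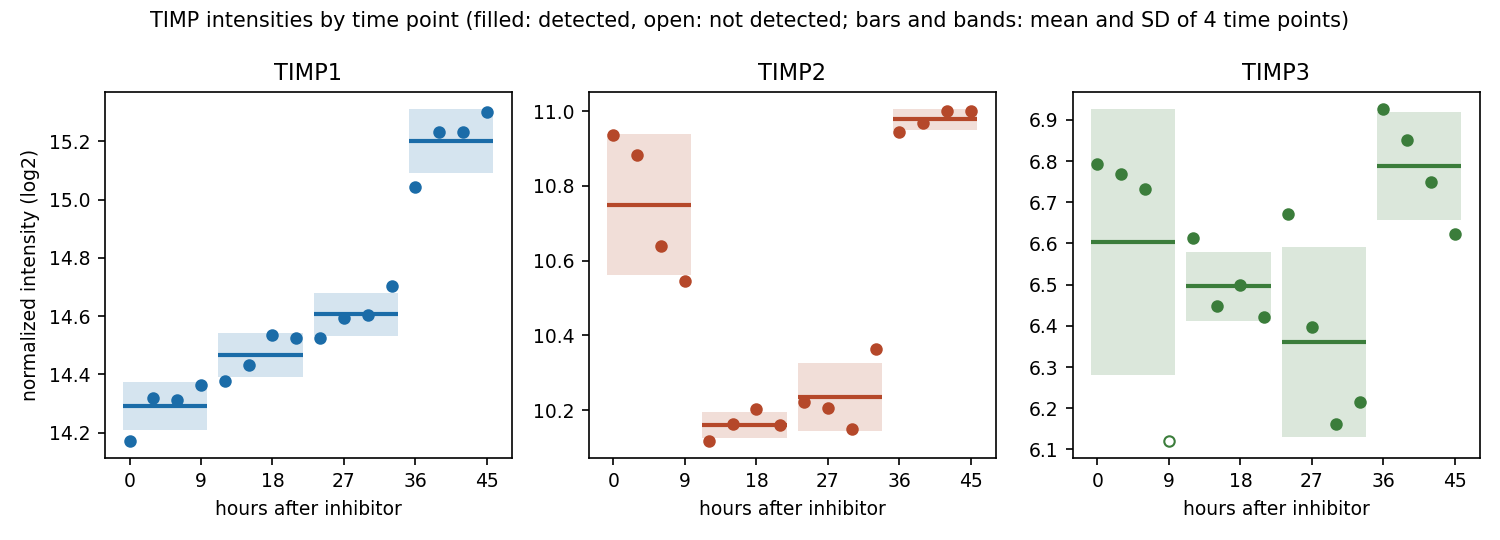
Normalized log2 intensity of TIMP1, TIMP2 and TIMP3 (vertical axes, each with its own range) against hours after the inhibitor (horizontal axis), 1 point per array, filled where detected and open where not. Bars and bands are the mean and SD of 4 neighbouring time points: TIMP1 climbed to 15.20 in the last window, TIMP2 dropped to 10.16 at 12 to 21 hours and stood at 10.98 in the last, and the open TIMP3 point at 9 hours is the low value of its first window.

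TIMP2 fell and then rose. TIMP2 inhibits MMPs and, together with MMP14 on the cell surface, is also needed to activate the MMP2 precursor. Its row was a combined value of several probes, while the other 8 members had a single probe each. Its deposited intensity was 1947, 1874, 1722 and 1635 at 0, 3, 6 and 9 hours, each lower than the one before. From 12 to 21 hours it was 1300, 1292, 1453 and 1324, and in the third window 1418, 1468, 1400 and 1540. In the last window it was 2268, 2010, 2159 and 1981. All 8 values from 12 to 33 hours lay below all 8 values before and after.

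On the normalized log2 scale, the TIMP2 means of the 4 windows were 10.75 ± 0.19 (SD), 10.16 ± 0.03, 10.23 ± 0.09 and 10.98 ± 0.03. From the first window to the second it fell by 0.59 (SE 0.09) on the log2 scale (limma, adjusted p = 9.36e-05). In that comparison 15.1% of tested rows were called higher and 14.4% lower, and the 2 members called were TIMP2, lower, and TIMP1, higher. Within the first window TIMP2 already fell by 0.32 between 0 to 3 and 6 to 9 hours (limma, adjusted p = 0.0224), and was the 1 member called where 13.3% of tested rows were called higher and 11.5% lower. That early call was lost without the 0 hour array (-0.29, adjusted p = 0.101) or the 9 hour array (-0.27, adjusted p = 0.132), and under median scaling (-0.21, adjusted p = 0.154). The largest single drop, -0.43, lay between 9 and 12 hours.

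Between 24 to 33 and 36 to 45 hours TIMP2 rose by 0.74 (SE 0.09), or 1.67-fold (limma, adjusted p = 4.01e-06), of which the step from 33 to 36 hours made 0.58. The last window and the first did not overlap, at 10.94 to 11.00 and 10.54 to 10.93, but their difference of 0.23 (SE 0.09) missed the threshold (limma, adjusted p = 0.0517). The outcome of this comparison depended on the setting. TIMP2 was called higher under median scaling (0.38, adjusted p = 0.00133), cyclic loess (0.23, adjusted p = 0.0497) and a filter for detection on all 16 arrays (adjusted p = 0.0448), and without the 0 hour array (0.29, adjusted p = 0.0122) or the 3 hour array (0.27, adjusted p = 0.0312). The difference was smaller, still positive and not called without the 6 hour array (0.19, adjusted p = 0.134) or the 9 hour array (0.16, adjusted p = 0.143). It was smallest, 0.09 (adjusted p = 0.506), when 42 and 45 hours were set against 0 and 3 hours. Over time as a whole, tested with a spline of 3 degrees of freedom, TIMP1 (limma, adjusted p = 4.68e-08) and TIMP2 (adjusted p = 1.33e-05) were called and TIMP3 was not (adjusted p = 0.285), where 54.7% of all tested rows were called. A straight line in time did not call TIMP2 (adjusted p = 0.575).

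TIMP3 was close to background throughout. TIMP3 differs from the other TIMPs in that it stays bound to the extracellular matrix, and it also inhibits ADAM proteases. Its deposited intensity was 292, 284, 290 and 246 in the first window and 274, 259, 264 and 256 in the second. It was 258, 246, 223 and 237 in the third and 305, 271, 269 and 234 in the last. It was detected on 15 of 16 arrays, with the exception of 9 hours, where its detection p was 0.0565. The lowest intensity that counted as detected lay between 201 and 248 over the arrays, against a TIMP3 range of 223 to 305.

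The TIMP3 means on the log2 scale were 6.60 ± 0.32 (SD), 6.50 ± 0.08, 6.36 ± 0.23 and 6.79 ± 0.13, and all neighbouring windows overlapped. From the third window to the last TIMP3 rose by 0.43 (SE 0.15), or 1.34-fold (limma, adjusted p = 0.0344). All 3 TIMPs were called higher in that step, in which 19.3% of all tested rows were called higher and 18.7% lower. The TIMP3 call was lost without the 27, 30, 33, 36, 39 or 42 hour array, with differences of 0.36 to 0.44 and adjusted p-values up to 0.107, and without the filter on detection (adjusted p = 0.0659). Without background correction the difference was 0.18 and stayed called (adjusted p = 0.0424). The last 4 against the first 4 time points gave 0.18 (SE 0.15, limma, adjusted p = 0.382), and 42 and 45 hours against 0 and 3 hours gave -0.09 (adjusted p = 0.757), so the sign of that difference depended on the arrays taken. The offset used in the background correction compresses differences this close to background.

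**Figure D2:**
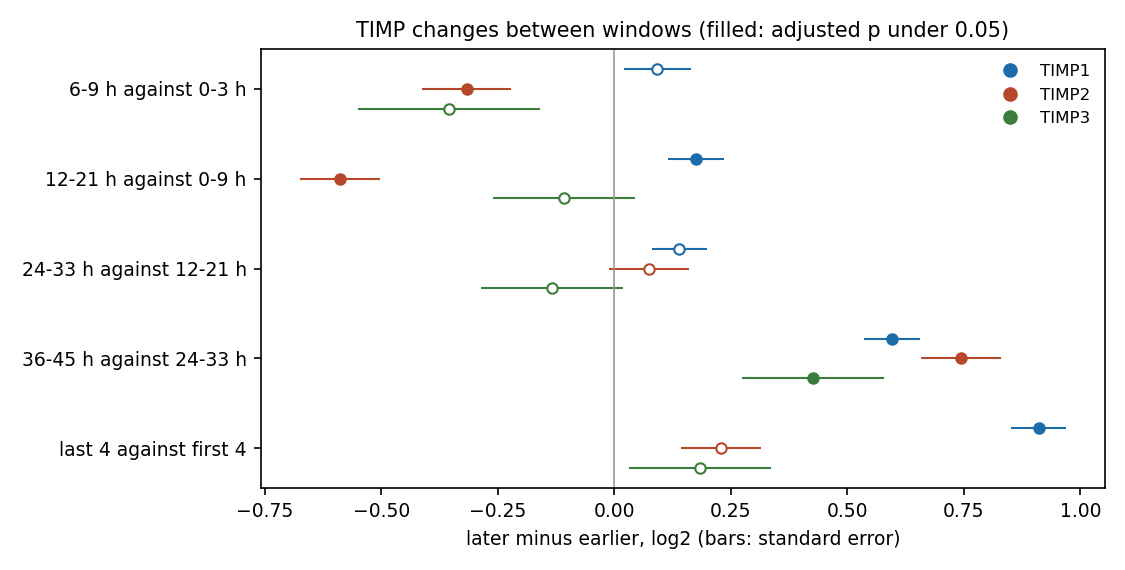
Difference between later and earlier windows of time (horizontal axis, log2) for TIMP1, TIMP2 and TIMP3 in 5 comparisons (vertical axis), with bars of 1 standard error and filled points where the adjusted p was under 0.05. The points of all 3 TIMPs are filled and positive at 36 to 45 against 24 to 33 hours, whereas at 12 to 21 against 0 to 9 hours TIMP2 lies at -0.59 and TIMP1 at 0.18.

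Courses over the whole series were set beside each other as a description, with no test between the TIMPs. Over the 16 arrays, which share their normalization and their order in time, the Pearson correlation of the log2 courses was 0.50 between TIMP1 and TIMP2, 0.28 between TIMP1 and TIMP3 and 0.65 between TIMP2 and TIMP3. The rows of other genes most like TIMP1 were AK3, a mitochondrial adenylate kinase (r = 0.977), PRCP, a lysosomal carboxypeptidase (r = 0.975), and CLYBL (r = 0.973). Those most like TIMP2 were SCPEP1, a serine carboxypeptidase (r = 0.987), HIST1H2BD, a histone H2B gene (r = 0.986), and PINK1, a mitochondrial kinase (r = 0.984). For TIMP3 they were BMP1, a secreted metalloproteinase that processes procollagen (r = 0.837), CDH3, which encodes P-cadherin (r = 0.835), and PYGB, a glycogen phosphorylase (r = 0.834). These values describe likeness over 16 arrays and were chosen as the highest of all tested rows.

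The 6 MMPs gave no signal that could be followed over time. MMP1, MMP2, MMP9, MMP10 and MMP14 were detected on none of the 16 arrays, and MMP3 on 1. Of all rows, 34.8% were detected on no array and 4.62% on exactly 1. An intensity at background does not show that a transcript was absent: it says that this probe did not separate it from the negative control beads at the precision of a single array.

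MMP1, the interstitial collagenase, had its highest intensity in the untreated culture, 235, with a lowest value of 153 at 24 hours and a median of 188. At 9 hours it stood at 232, and neither of these arrays reached detection (detection p-values of 0.0763 and 0.0961). Of the stromelysins, which cut many matrix proteins and activate other MMPs, MMP10 ranged from 145 to 220 with a median of 188, also with its highest value at 0 hours. The gelatinases cut denatured collagen and basement membrane collagen: MMP2 ranged from 151 to 205 (median 183) and MMP9 from 142 to 188 (median 158). MMP14, a membrane-bound MMP that activates the MMP2 precursor, ranged from 147 to 205 (median 186).

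MMP3, the other stromelysin, was detected in the untreated culture only. Its deposited intensity was 291 at 0 hours (detection p-value of 0.0141), against 201, 199 and 185 at 3, 6 and 9 hours, 176 to 218 in the second window, 184 to 207 in the third and 159 to 185 in the last. The 0 hour value lay above all 15 others. On the normalized scale it was 6.78, against a mean of 5.53 at 3 to 9 hours. Since those arrays were not above background, the difference is a bound: the 0 hour value was at least 1.57-fold higher than the detection floor of the 3 to 9 hour arrays. This rests on 1 array with no replicate, and no test was made.

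The background was lower in the later arrays. The mean of the negative control beads, inferred from the detection p-values, was 188 to 199 at 0 to 21 hours and 166 to 185 at 24 to 45 hours. The 7166 rows detected on no array had a median intensity of 182 to 192 at 0 to 21 hours and 161 to 179 at 24 to 45 hours. The labels name no chip or scan, so whether these ranges belong to separate sets of arrays cannot be told. The last against first comparison and that of 24 to 33 with 12 to 21 hours span both ranges. By the control mean, the other 3 window comparisons each lie within one. The SD of the control beads was 41.9 to 44.7 at 0 to 9 hours and 33.1 to 37.9 at 12 to 33 hours. At 36, 39, 42 and 45 hours it was 41.9, 38.7, 41.1 and 34.2. The comparisons of 12 to 21 with 0 to 9 and of 36 to 45 with 24 to 33 hours span these differences. They called 3527 and 4540 rows, against 3 for 24 to 33 with 12 to 21 hours. Whether these differences go with sets of arrays was not tested. With a term for the first 8 against the last 8 arrays added to the spline, TIMP1 (limma, adjusted p = 4.3e-06) and TIMP2 (adjusted p = 4.16e-05) were called. That term stands for a step between 21 and 24 hours only. It could not take up a step between 9 and 12 or between 33 and 36 hours, where TIMP2 changed most. Set against the negative control mean of its own array and in units of its SD, the MMP2 mean was -0.02, -0.06, -0.31 and 0.18 in the 4 windows, that of MMP10 0.12, -0.07, 0.17 and 0.02, and that of MMP14 -0.10, -0.15, -0.20 and 0.16. MMP1 stood at 0.32, -0.03, -0.17 and -0.05, and MMP9 was below the control mean in all 4, at -0.48, -0.74, -0.98 and -0.53. MMP3 stood at 0.53, 0.14, 0.41 and 0.01, with 2.12 on the 0 hour array.

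**Figure D3:**
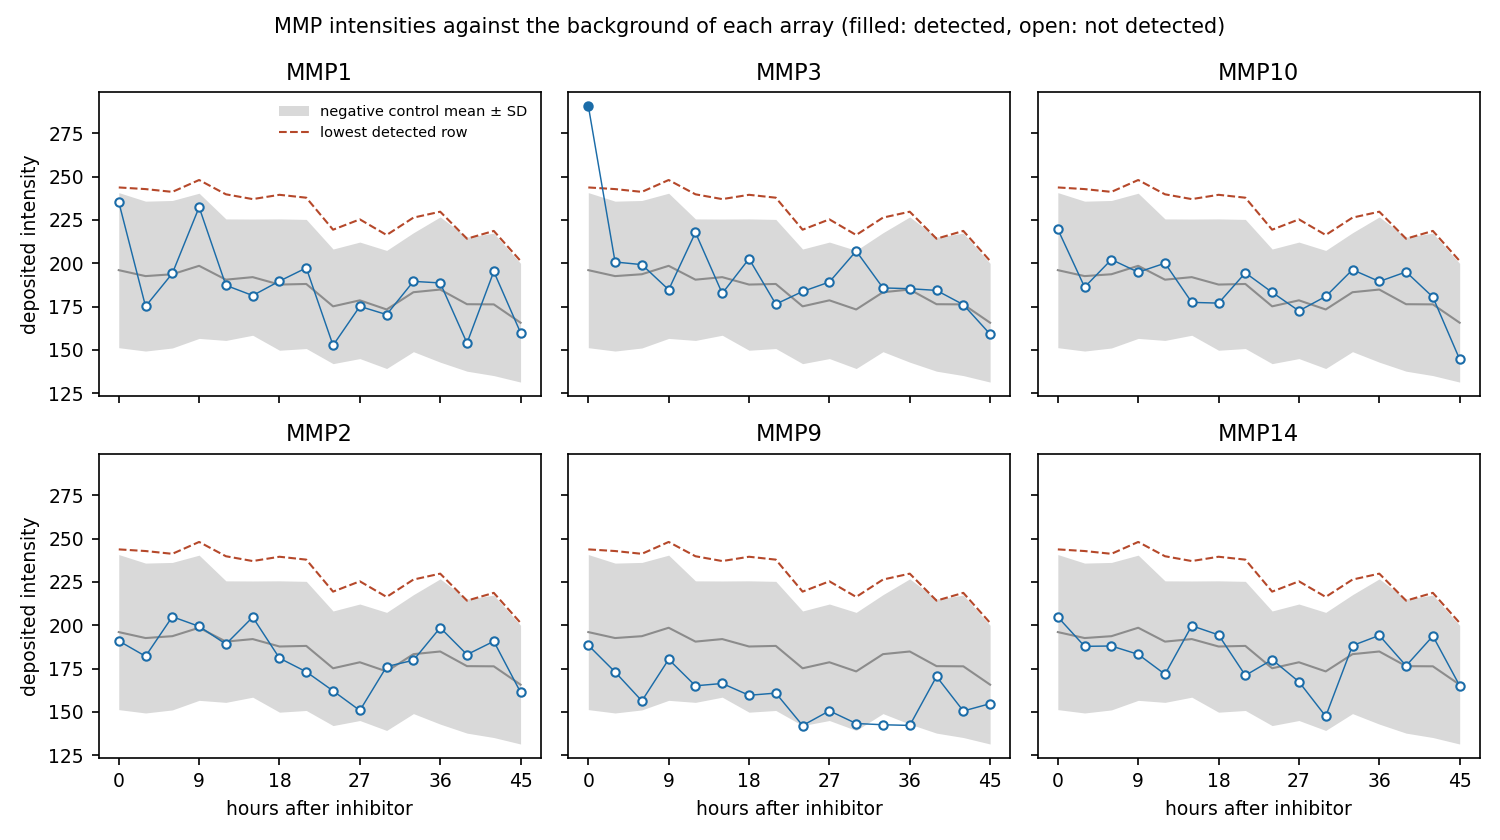
Deposited intensity (vertical axes, linear, not starting at 0) of the 6 MMPs against hours after the inhibitor (horizontal axis), filled where detected and open where not. The grey line and band are the mean and SD of the negative control beads and the dashed line is the lowest intensity counted as detected: all points but MMP3 at 0 hours, at 291, lie below the dashed line.

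Of the other MMPs and TIMP4, 19 symbols were on the array, 7 passed the filter and 10 were detected on no array. In the last 4 against the first 4 time points 3 of the 7 were called lower, none higher and 4 were not called, where 15% of all tested rows were called lower and 16.2% higher. Their median was -0.25 against -0.02 over all tested rows. MMP7, matrilysin, a small MMP made by epithelial cells, was detected on all 16 arrays. Its deposited intensity was 2480, 2348, 2039 and 2079 in the first window, 1318, 1227, 927 and 869 in the second, 1212, 1115, 971 and 769 in the third, and 1353, 1434, 1627 and 1586 in the last. All 4 values of the first window lay above all 12 later ones. MMP7 fell by 1.31 on the log2 scale from the first to the second window (limma, adjusted p = 6.91e-05), rose by 0.83 from the third to the last (adjusted p = 0.00191) and ended -0.66 (SE 0.19) from its start (adjusted p = 0.0114). It was called lower at the end under all 20 alternatives run for it.

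MMP13, a collagenase, differed by -0.55 (SE 0.20, limma, adjusted p = 0.0421) and MMP15, a membrane-bound MMP named here after its values were seen, by -0.48 (SE 0.15, adjusted p = 0.0223). Both were dim, at intensities of 206 to 317 and 231 to 351, with their highest values at 0 hours. The MMP13 call was lost under 9 of 20 alternatives, among them leaving out the 0, 3, 6, 30, 36, 39 or 45 hour array, and the MMP15 call under 6, among them leaving out the 0, 3, 6, 36 or 45 hour array. Under median scaling neither was called, and without background correction the differences were -0.23 for MMP13 and -0.21 for MMP15. MMP28, epilysin, had a row near background that was not tested and a brighter one that stood at 272 and 263 at 0 and 3 hours, 410 and 460 at 6 and 9 hours and 316 to 381 thereafter. It rose by 1.50 between 0 to 3 and 6 to 9 hours (limma, adjusted p = 3.49e-05), while its last against first difference, 0.50 (SE 0.28), was not called (adjusted p = 0.195).

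**Figure D4:**
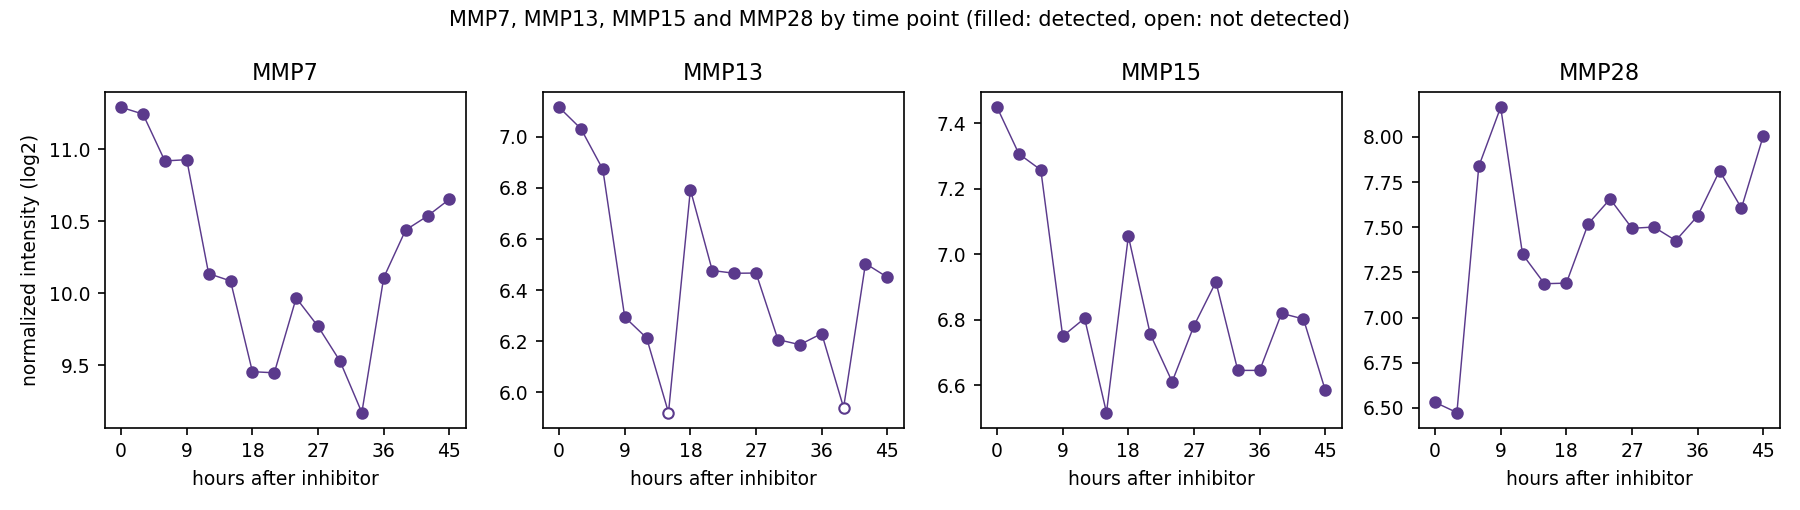
Normalized log2 intensity of MMP7, MMP13, MMP15 and MMP28 (vertical axes, each with its own range) against hours after the inhibitor (horizontal axis), 1 point per array, filled where detected and open where not. MMP7 dropped after 9 hours and was higher again from 36 hours, and MMP28 had its highest value at 9 hours.

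Genes that activate MMPs or act beside them were called at shares near those of all tested rows (16.2% higher and 15% lower). Of 29 activators, related proteases and regulators on the array 19 were tested, of which 3 were called higher and 4 lower at the end, with a median of -0.01. PLAU, the urokinase that generates plasmin, an activator of MMP precursors, differed by -1.17 (SE 0.20, limma, adjusted p = 2.16e-04). Its first window held a rise, from 10.91 on the log2 scale at 0 hours to 11.78 at 9 hours. The last window of PLAU, at 10.02 to 10.24, therefore lay less far below the untreated culture. CTSB, the lysosomal protease cathepsin B, rose by 0.86 (SE 0.11, adjusted p = 2.05e-05). It fell from 9.86 at 0 hours to 9.38 at 9 hours and stood at 10.39 to 10.41 in the last window. The rise of CTSB was thus smaller against the untreated culture. CD44, a hyaluronan receptor that holds MMPs at the cell surface, rose by 0.77 (SE 0.06, adjusted p = 2.22e-07) on its brighter row, and its dimmer row gave -0.10 (adjusted p = 0.68).

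Of 20 AP-1, ETS and other regulators of MMP genes 16 were tested, with 1 called higher and 3 lower, beside 16.2% and 15% of all tested rows, and a median of 0.07. FOSL1, an AP-1 subunit, differed by -1.77 (SE 0.29, limma, adjusted p = 1.90e-04) and SNAI2, a repressor of epithelial genes, by -1.13 (SE 0.14, adjusted p = 1.22e-05). The first window of FOSL1 held a rise, from 9.26 on the log2 scale at 0 hours to 10.96 at 6 hours. Its last window, at 8.28 to 8.90, therefore lay less far below the untreated culture than below the first window. RUNX2, a factor known to act on the MMP13 gene, differed by 0.69 (SE 0.14, adjusted p = 0.0015) on one row, which was detected on 1 of the first 4 arrays and 4 of the last 4 and passed the filter through its late arrays. Without background correction that difference was 0.31, and the other RUNX2 row gave 0.03 (adjusted p = 0.902), so its probes disagreed. Of 24 matrix and surface proteins that MMPs can cut 15 were tested, with 6 called higher, none lower and a median of 0.18, beside 16.2% and 15% of all tested rows. LAMB1, a laminin chain, rose by 1.24 (SE 0.17, limma, adjusted p = 3.5e-05) and LAMC1, another laminin chain, by 0.55 (SE 0.09, adjusted p = 1.82e-04). Between 0 and 9 hours LAMB1 went from 7.78 to 8.66 on the log2 scale, and LAMC1 from 10.97 to 10.52. LAMC1 stood at 11.26 to 11.39 in the last window, so its rise was smaller against the untreated culture, while that of LAMB1 was larger. COL7A1, the collagen of anchoring fibrils, differed by 0.77 (SE 0.19, adjusted p = 0.00458), but its first window held a fall. Its log2 value was 10.60 in the untreated culture, 9.43 at 9 hours and 10.61 to 10.92 in the last window, so it ended near or above the untreated value. The FN1 probe was at background, and 1 row of LAMB3, at intensities of 1658 to 4132, carried no detection call and was not tested. The same held for 1 row of ATF3, from the list of AP-1, ETS and other regulators, at intensities of 264 to 909.

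The cells were checked against markers. KRT5 and KRT17, basal keratins, were detected on all 16 arrays, while the KRT14 probe was detected on 1 and the ITGA6 probe on none, and 3 of 6 tested basal markers were called higher at the end, where 16.2% of all tested rows were. The summed intensity of the 8 basal markers on the array was 43135 to 64574 in the first 4 arrays and 58895 to 70156 in the last 4. Of 9 fibroblast markers 7 were detected on no array, including COL1A1, COL1A2, COL3A1 and PDGFRB, while FAP was detected on all 16 and differed by -0.40. The summed intensity of the fibroblast list was 2393 to 2639 in the first 4 arrays and 2069 to 2428 in the last 4. All sums given here are of deposited intensities with background included, so probes that were not detected add to them. The negative control mean was 193 to 199 on the first 4 arrays and 166 to 185 on the last 4. Of 5 leukocyte markers 3 were tested and 2 called higher, CD14 and CSF1R (0.46). CD14 was detected on none of the first 4 arrays and all of the last 4, where it was at least 2.76-fold higher than the detection floor of the first. AIF1 and TYROBP were detected on no array, and the list summed to 1672 to 2022 and 2030 to 2368. Of 4 endothelial markers 2 were tested and PECAM1 was called higher (0.85), with VWF and CDH5 detected on no array and sums of 844 to 894 and 775 to 915. Their part in the TIMP and MMP results was not tested, and in RNA from whole cultures fewer cells with a transcript and less of it per cell cannot be told apart.

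All pairs of arrays correlated at r = 0.960 to 0.996 across rows, and no pair held identical values. Of the rows called between the first and the last window, 51.8% were higher, a share that was 74% when arrays were scaled to their medians instead of quantile normalized. The median shift of all tested rows was then 0.07. Precision is limited by 1 array per time point.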

How the data were processed

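Total RNA of MCF-10A cells at 16 time points was measured on 1 Illumina human Ref8v2 array each. The authors deposited bead intensity values that had not been normalized, each with a detection p-value measured against negative control beads. The study's methods name quality control and quantile normalization, while the summary software is not given in the sources used here. Of 20589 rows, 19054 stand for a single probe, as their detection p-values are multiples of 1 in 708. From these rows limma 3.58.1 (R 4.3.3) inferred the negative control level. Background was removed by normexp with an offset of 16, followed by quantile normalization and log2. The 11957 rows with detection p-values below 0.05 in 3 or more of the 16 arrays were tested with limma, with a trend in the prior variance and Benjamini-Hochberg adjustment over all of them at 0.05. The windows of 4 times were fitted together, the early comparison in a fit of 8 pairs of times, and the spline had 3 degrees of freedom. Scripts were tested on simulated data. Genes named beyond the members were, for each tested TIMP, the 3 rows with the highest Pearson r and, for each list, the 3 tested genes with the largest last against first difference on their brightest row. The members and lists were chosen with earlier results of these data known. Alternatives covered background correction, offset, normalization, filter, curve and left-out arrays. The build of the array annotation is not given in the sources used here. Figures were drawn with matplotlib 3.10.9.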

Additional observations from a re-analysis of the deposited data

Results flagged for a closer look

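In 36 groups of 4 neighbouring time points of the members, 2 held a value far from the other 3, and chance alone flags about 1 in 20 such groups. TIMP3 at 9 hours, at 6.12 on the log2 scale, lay below 6.73 to 6.79 at 0 to 6 hours, with a gap of 0.909 of the range. It is also the only array on which TIMP3 was not detected. MMP3 at 0 hours, at 6.78, lay above 5.39 to 5.62 at 3 to 9 hours, with a gap of 0.831 of the range, and those 3 values were not above background. The cause of either was not tested.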

How the results depend on the processing

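TIMP1 in the last against the first 4 time points (0.87 to 1.04 over 25 alternatives) and at 36 to 45 against 24 to 33 hours (0.45 to 0.67 over 24), and TIMP2 at 12 to 21 against 0 to 9 hours (-0.66 to -0.39) and at 36 to 45 against 24 to 33 hours (0.59 to 0.79), kept their direction and stayed called. Of the 3 tested members, those called in the last against the first 4 time points numbered 1 as reported and 2 under median scaling, cyclic loess and detection on all 16 arrays, and 1 to 2 when single arrays were left out. TIMP2 was the added one, with 0.38, 0.23 and 0.23, and 0.16 to 0.29 without single arrays. Its lowest value over 25 alternatives was 0.09 (adjusted p = 0.506), with 42 and 45 hours against 0 and 3 hours. At 12 to 21 against 0 to 9 hours, 2 were called as reported and 1 under cyclic loess, without a filter on detection, without a trend in the prior variance and with only the 8 arrays compared (1 to 2 without single arrays), TIMP1 being lost. In the early comparison 1 was called as reported, 0 under median scaling and 0 to 2 without single arrays. A line in time called 1 of 3 members, losing TIMP2 (0.25), and 1955 in place of 6538 of all rows. TIMP3 at 36 to 45 against 24 to 33 hours lost its call under 7 of 23 alternatives (0.18 to 0.53 over all). TIMP3 turned to -0.0944 in the comparison of the ends of the series when 42 and 45 hours were set against 0 and 3 hours. The cause of these changes was not tested. Over all rows, 2479 in place of 3732 were called at the end, and 2186 in place of 3527 at 12 to 21 hours, when only the 8 arrays compared were fitted, 1701 in place of 2957 were called early without the 9 hour array, and 1 to 17 in place of 3 at 24 to 33 against 12 to 21 hours. No paired analysis was possible because each time point has 1 array. Signal over background limits TIMP3 and all 6 MMP members.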
